A study of Mus musculus with 37 samples.

Results

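Fully grown mouse oocytes were followed through meiotic maturation by asking which transcripts had changed by metaphase II (MII), by metaphase I (MI), or at both stages. The comparison was the change from germinal vesicle (GV) oocytes to MII oocytes in batch A minus the change from GV oocytes to MI oocytes in batch B, so that each stage was set against GV oocytes of its own batch. All 37 of the 37 single oocytes of the series entered it, chosen by their stage and batch labels: 6 GV and 6 MII oocytes in batch A (GV_A, MII_A), and 10 GV and 15 MI oocytes in batch B (GV_B, MI_B). A gene was tested if it had 10 or more counts in at least 6 oocytes of each batch, which left 12567 genes, and spike-in transcripts were set aside.

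The oocytes came from C57BL/6 females 6 to 8 weeks old that had received 5 IU of pregnant mare serum gonadotropin (PMSG). Both GV groups were taken from ovaries 48 h after PMSG. MII oocytes were ovulated eggs, recovered from the ampulla of the oviduct 15 h after 5 IU of human chorionic gonadotropin (hCG), which followed PMSG by 48 h. MI oocytes were GV oocytes freed of cumulus cells and cultured in M16 medium for 8 h, so MI and MII differed in stage, in batch and in maturation in a dish or in the animal, and these cannot be told apart in the difference between the changes.

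As background, a fully grown oocyte stops transcribing before it resumes meiosis, and from then on its messages can only be stored, translated, modified or degraded. Maturation lengthens the poly(A) tails of some stored messages, often through cytoplasmic polyadenylation elements bound by CPEB1, and shortens the tails of others, such as those of ribosomal proteins, many of which are then degraded. The libraries were primed with oligo-dT, so a change in tail length and a change in the number of molecules cannot be told apart.

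Each library was a single oocyte, and its expected counts summed to 7509812 to 12648571 in GV_A, 9930422 to 13988336 in MII_A, 7184193 to 17724506 in GV_B and 2709247 to 19390137 in MI_B. The shallowest was MI oocyte 15, with 12654 genes holding at least 1 count. MII oocyte 1 stood apart at the other end with 29816 such genes, whereas the other MII oocytes held 19574 to 22598. No label tied oocytes to animals, so the p-values measure the spread between oocytes. All 15 oocyte markers in the table passed the filter, led by Gdf9. Of 29 cumulus and granulosa markers 3 passed, and of 14 blood and immune markers 1 passed.

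At MII, 161 genes were higher (1.28% of those tested) and 421 were lower (3.35%) than in GV_A at an adjusted p under 0.05 and a fold over 2 by edgeR's quasi-likelihood test. At MI, 49 genes were higher (0.39%) and 9 were lower (0.0716%) than in GV_B. The difference between the changes passed for 212 genes in the higher direction (1.69%) and 315 in the lower direction (2.51%). Without MII oocyte 1, 59 genes were higher at MII and 113 in the difference. Counts from HTSeq, the authors' second gene table, gave 29 higher and 307 lower genes at MII, and 76 and 197 in the difference. Timing classes joined the edgeR calls of the main fit with all oocytes. A gene was placed after MI when it was called at MII, called the same way in the difference and not called at MI, which held for 119 higher and 238 lower genes. Only 1 gene, lower, was called at MII and at MI with the difference not called (already at MI), and 1, also lower, was called at both steps and in the difference. Another 41 higher and 181 lower genes were called at MII with neither MI nor the difference called, so that their timing was not resolved. Likewise 41 higher and 3 lower genes were called at MI with neither MII nor the difference called, which were most of the MI calls. The difference alone was called for 89 higher and 68 lower genes.

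The count at MI depended on the tool, on the filter and on single oocytes. DESeq2 called 146 higher and 33 lower genes there, limma-voom with a variance for each group called 0 at 1296 genes with an unadjusted p under 0.05, and edgeR had 1727 such genes. Counts from HTSeq gave 3 genes, all lower, with Grm2 and Arhgap1 among them. Without MI oocyte 9 the edgeR total of 58 became 140, and without GV_B oocyte 4 it became 17. With no filter beyond 1 count it became 1231, with 457 higher and 774 lower among 39293 genes tested. A block on the oocyte number gave 8. Beside 2869 genes with an unadjusted p under 0.05 at MII and 2317 in the difference, these counts do not show that the remaining genes held their level at MI. By direction, 12.7% of all genes were higher and 10.1% lower at MII at that unadjusted p, 7.38% and 6.37% at MI, and 9.64% and 8.8% in the difference.

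Levels of single genes are given below as the median oocyte of a group with its lowest and highest oocyte in parentheses, in CPM (counts scaled to a common library total, with TMM factors), and changes are log2 folds. All of them are relative to the other transcripts of the oocyte. Spike-ins were abundant in batch A alone, and scaling the 12 oocytes of batch A by them moved the median change of all genes to -0.72 on the log2 scale at MII and to -0.75 in the difference, against 0.07 and 0.04 with TMM scaling. The split at MII, 161 higher and 421 lower, became 69 higher and 2727 lower with that scaling. The split of the difference, 212 higher and 315 lower, became 98 higher and 2569 lower. The changes below are those relative to all genes, and spike-in values are given where the median difference of a gene list turned.

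**Figure D1:**
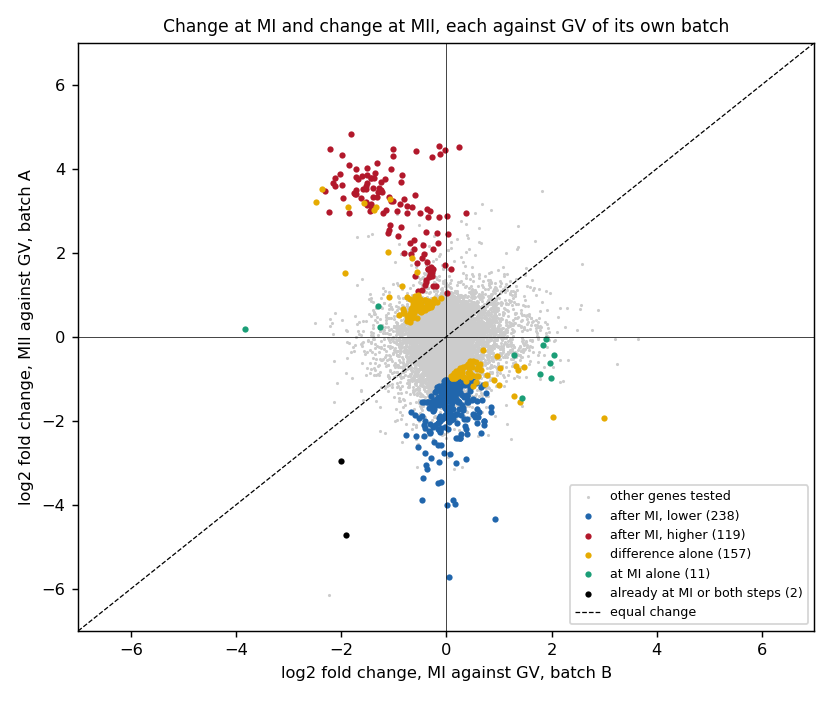
Log2 change from GV to MI in batch B (horizontal axis) against log2 change from GV to MII in batch A (vertical axis) for the 12567 genes tested, with colours for the timing classes. The 238 lower genes placed after MI lie far below 0 on the vertical axis and near 0 on the horizontal axis.

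Of the 238 lower genes placed after MI, 190 were protein-coding (79.8%, against 87.1% of all genes tested), and the median change of the class was -1.56 at MII and 0.05 at MI. HTSeq counts tested 217 of them, gave 213 the same sign of the difference and called 135 the same way. Leaving out MII oocyte 1 placed 186 lower genes after MI, of which 180 were among the 238 (75.6% of them). The class held 129 lower genes with a block on the oocyte number, 154 in the HTSeq fit itself and 1947 with spike-in scaling. The lower genes were also compared in the GV groups themselves: 179 of the 238 had a lower fitted level in GV_B than in GV_A, with a median of -0.45, against 6592 of all 12567 and a median of -0.05. Of the 238, 42 were lower by over 2-fold, a count given without its share over all genes. The GV_A oocytes enter both the GV comparison and the MII change, so no test was made of that comparison. Across all 421 genes called lower at MII, 247 had an MI change below 0 (58.7%, against 48% of all genes), with a median of -0.08 at MI beside -1.46 at MII. Of the 161 genes called higher at MII, a count that was 59 without MII oocyte 1, 76.4% had an MI change below 0, with a median of -0.54 at MI. Without regard to p, 61 of the 161 were lower there by over 2-fold, against 278 of all 12567. A gene low at MI could pass the filter of batch B through its GV_B oocytes alone. HTSeq counts tested 46 of the 161, and by those counts 54.3% of the 46 had an MI change below 0, with a median of -0.13, against 47.3% of all genes.

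Cytoplasmic ribosomal proteins, the building blocks of the translating ribosome, formed the list with the most members lower at MII. Of 84 tested, 38 were lower at MII (45.2%, against 3.35% of all genes) and 37 were lower in the difference (44%, against 2.51%), and 34 were placed after MI. Their median change was -0.98 at MII and -0.11 at MI, and that of the difference was -0.91, or -0.96 relative to all genes with spike-in scaling. edgeR called 0 of the 84 at MI, with 3 higher and 16 lower at an unadjusted p under 0.05 (3.57% and 19%, against 7.38% and 6.37% of all genes), and neither DESeq2 nor limma-voom called any there. Rpsa (ENSMUSG00000032518.6, chromosome 9:120127689-120132369 on the plus strand of GRCm38), a protein of the small subunit, measured 46.4 CPM (31.5 to 53.2) in GV_A and 5.64 CPM (3.5 to 12.1) in MII_A, and 88.1 CPM (65.7 to 153) in GV_B and 104 CPM (75.1 to 166) in MI_B. Its change was -2.79 ± 0.24 (SE, adjusted p = 1.3e-11) at MII and 0.08 ± 0.15 (SE, adjusted p = 0.88) at MI, and the difference was -2.86 ± 0.28 (SE, adjusted p = 1.7e-09). Every MII oocyte lay below every GV_A oocyte, while MI and GV_B overlapped and both lay above GV_A.

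Rps13, another small subunit protein, fell from 88 CPM (59.2 to 140) in GV_A to 8.9 CPM (3.85 to 18.2) in MII_A, a change of -3.36 ± 0.31 (SE, adjusted p = 1.8e-10). In GV_B it measured 27.8 CPM (15.9 to 46.1) and in MI_B 20.7 CPM (13.7 to 39.5), a change of -0.45 ± 0.20 (SE, adjusted p = 0.29), and the difference was -2.91 ± 0.36 (SE, adjusted p = 8.7e-07). MII and GV_A did not overlap, and every GV_B oocyte lay below every GV_A oocyte. For Rpl26, of the large subunit, GV_A stood at 25.4 CPM (20.1 to 30.1), MII_A 6.95 CPM (5.53 to 9.0), GV_B 31.9 CPM (26 to 41.9) and MI_B 46.9 CPM (31.9 to 90.1), and its difference was -2.39 ± 0.26 (SE, adjusted p = 2.8e-08). The MII oocytes again lay below all of GV_A, whereas MI oocytes overlapped GV_B and reached higher. Rpl14 and Rps26 were also placed after MI, with differences of -1.98 ± 0.28 (SE, adjusted p = 1.3e-05) and -2.73 ± 0.40 (SE, adjusted p = 1.9e-05). Rpl4, the member with the highest mean level, did not pass, at -0.45 ± 0.18 (SE, adjusted p = 0.098) at MII and -0.53 ± 0.21 (SE, adjusted p = 0.15) in the difference. Many of these genes have processed pseudogenes of near-identical sequence, so counts of single members are uncertain. The fitted level in GV_B minus that in GV_A had a median of -0.66 over the list, and 30 of the 34 members placed after MI were lower in GV_B, 6 of them by over 2-fold.

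The share of each library's counts on these genes gave the same contrast without a gene-by-gene fit. It averaged 0.523% in GV_A and 0.233% in MII_A (difference -0.29 points, lower in 6 of 6 MII oocytes, exact two-sided permutation p = 0.00216, the smallest that 6 against 6 allow, adjusted p = 0.0162 over 14 such tests). In batch B it averaged 0.236% in GV_B and 0.222% in MI_B (permutation p = 0.464, adjusted p = 0.65). MII and GV_A did not overlap in this share, and MI and GV_B did. In shares of the plain library total, GV_B oocytes therefore began near the value that MII oocytes reached in batch A. Such shares depend on the rest of the library, and annotated ribosomal RNA took 15.6% of counts in GV_A and 26.9% in GV_B. With TMM factors the list median was -0.66 for GV_B minus GV_A and -0.98 for MII against GV_A.

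**Figure D2:**
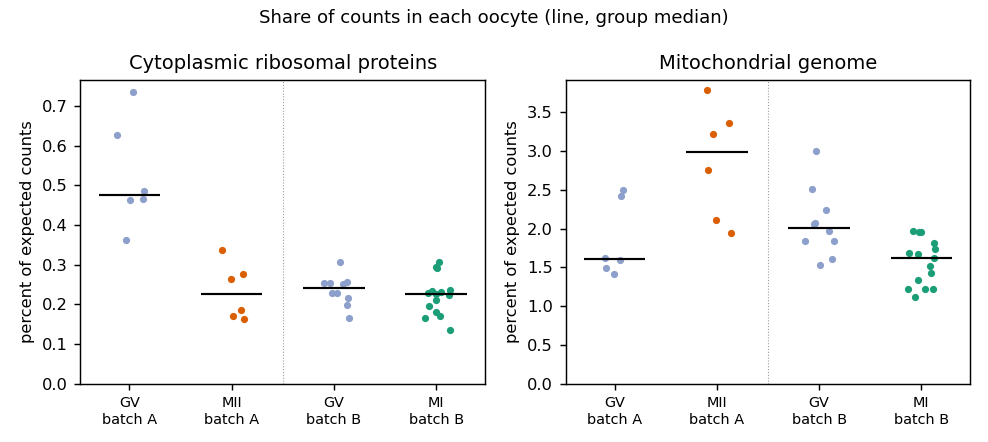
Percent of each oocyte's expected counts on cytoplasmic ribosomal protein genes and on mitochondrial-genome genes, 1 point per oocyte and a line at each group's median. The ribosomal protein share of the 6 MII oocytes lies below that of the 6 GV_A oocytes, while the MI and GV_B oocytes overlap.

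Further lists of energy supply and protein turnover held members that fell by MII. Among 78 mitochondrial ribosomal proteins, which translate the mitochondrion's own messages, 12 were lower at MII (15.4%, against 3.35% of all genes), 9 in the difference (11.5%, against 2.51%) and 6 after MI, with list medians of -0.42 at MII and -0.06 at MI. Mrps22 fell from 76.9 CPM (62.3 to 100) to 25.6 CPM (15.4 to 36.2) in batch A and measured 60 CPM (36.8 to 77.5) in GV_B and 53.3 CPM (31.1 to 76.5) in MI_B, with a difference of -1.44 ± 0.28 (SE, adjusted p = 8.6e-04). Mrpl14 and Mrpl23 were placed after MI as well, with differences of -1.81 ± 0.40 (SE, adjusted p = 0.0036) and -2.23 ± 0.53 (SE, adjusted p = 0.0075), though with HTSeq counts Mrpl23 gave -1.63 and no call (adjusted p = 0.095). The MII oocytes lay below all GV_A oocytes for these 3 genes, and the MI and GV_B oocytes overlapped. Mrpl1 passed in the difference alone at -1.70 ± 0.29 (SE, adjusted p = 2.5e-04), with -0.92 ± 0.24 (SE, adjusted p = 0.0097) at MII and 0.77 ± 0.17 (SE, adjusted p = 0.022) at MI, both under 2-fold. The list's most abundant member, Mrpl18, gave a difference of 0.31 ± 0.19 (SE, adjusted p = 0.39), which turned to -0.47 with spike-in scaling.

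Of 80 nuclear-encoded subunits of the respiratory chain and ATP synthase, 19 were lower at MII (23.8%, against 3.35% of all genes), 11 in the difference (13.8%, against 2.51%) and 10 after MI. Their median was -0.62 at MII and -0.23 at MI, and the GV_B level minus the GV_A level had a median of -0.64. The ATP synthase subunit gene Atp5h fell from 62.2 CPM (45.6 to 74.7) in GV_A to 19 CPM (13.4 to 24.3) in MII_A, and measured 36.9 CPM (27.8 to 63.4) in GV_B and 39.9 CPM (22.1 to 93.2) in MI_B. Its difference was -1.95 ± 0.35 (SE, adjusted p = 4.2e-04), and that of Atp5o was -1.65 ± 0.30 (SE, adjusted p = 4.4e-04). Ndufa9 of complex I gave -1.27 ± 0.29 (SE, adjusted p = 0.0049) and Uqcrb of complex III gave -1.81 ± 0.42 (SE, adjusted p = 0.0064), the latter with no call from HTSeq counts (-1.40, adjusted p = 0.077). All 4 had MII oocytes below the whole of GV_A and overlapping MI and GV_B oocytes. Sdha, of complex II and the list's most abundant member, measured 130 CPM (89.9 to 184) in GV_A and 203 CPM (182 to 210) in MII_A, and its difference of 0.48 ± 0.21 (SE, adjusted p = 0.21) did not pass and turned to -0.29 with spike-in scaling.

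Proteasome genes numbered 41, with 6 lower at MII (14.6%, against 3.35% of all genes) and 4 after MI. They were taken by symbol and include an assembly chaperone beside subunits of the complex, which degrades ubiquitin-tagged proteins. In the difference 6 were lower (14.6%, against 2.51%) and 1, Psma2, higher (2.44%, against 1.69%), a call lost with limma-voom and in 14 of the 37 fits that each left out 1 oocyte. Psmb7, of the catalytic core, fell from 79.5 CPM (65.2 to 92.1) to 27.2 CPM (19 to 33.5) in batch A and measured 60.4 CPM (40.1 to 81.6) in GV_B and 57.8 CPM (47 to 87.4) in MI_B. The difference was -1.56 ± 0.22 (SE, adjusted p = 1.2e-05). Psma6 and Psma7 of the core's outer rings gave -1.87 ± 0.31 (SE, adjusted p = 1.0e-04) and -1.82 ± 0.35 (SE, adjusted p = 0.001), and the ATPase Psmc4 of the regulatory cap gave -1.48 ± 0.33 (SE, adjusted p = 0.0045). None of the 4, picked by the adjusted p of the difference, overlapped between MII and GV_A, and each overlapped between MI and GV_B. Psmd4, the most abundant subunit, gave 0.00 ± 0.22 (SE, adjusted p = 0.99) at MII. The list of translation initiation and elongation factors was also taken by symbol and includes a methyltransferase of such a factor. Among its 61 genes 3 were lower at MII (4.92%, against 3.35% of all genes), which were Eef1a1, Eif3m and Eif3k. In the difference 2 were lower and 2 higher (3.28% each, against 2.51% and 1.69%). Eef1a1, which delivers aminoacyl-tRNA to the ribosome, fell from 308 CPM (264 to 385) to 115 CPM (90.1 to 124) and had a difference of -1.32 ± 0.24 (SE, adjusted p = 3.9e-04). Eif3c passed in the difference alone at -1.17 ± 0.24 (SE, adjusted p = 0.0017), and Eif1b and Eif2b1 passed there in the higher direction, Eif1b at 1.09 ± 0.25 (SE, adjusted p = 0.0049), which with spike-in scaling was 0.31 with no call, and Eif2b1 at 1.02 (adjusted p = 0.018), which HTSeq counts did not call (0.93, adjusted p = 0.06). The list had 1 gene higher in the difference in 8 of the fits that each left out 1 oocyte. Eif3e gave -0.97 (adjusted p = 0.016), under 2-fold, and Eif5b 0.77 (adjusted p = 0.11), which spike-in scaling turned to -0.02.

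**Figure D3:**
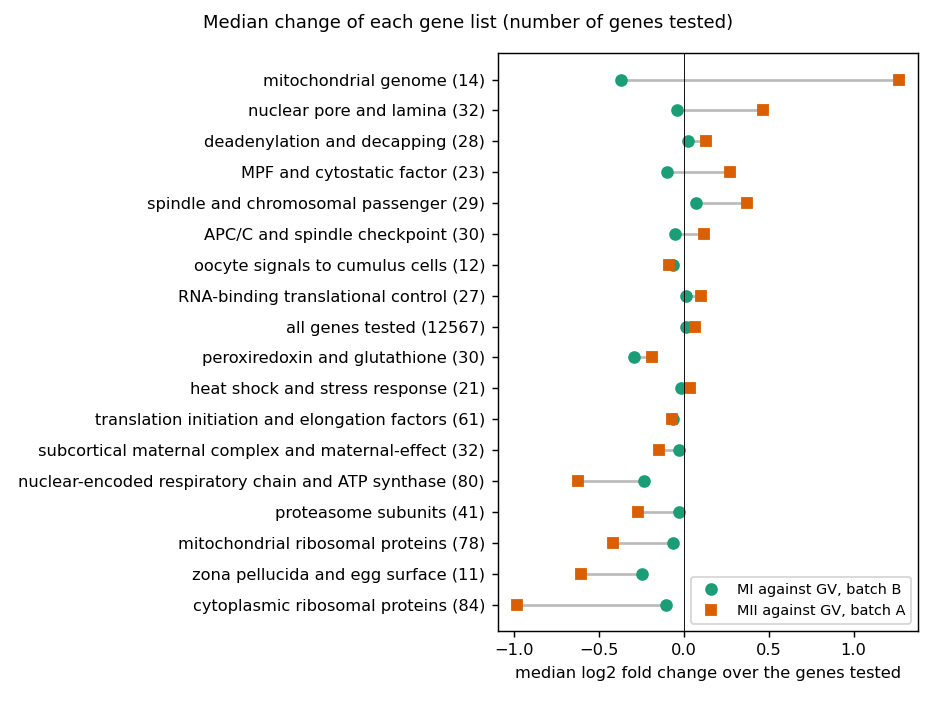
Median log2 change of each gene list at MII (against GV_A) and at MI (against GV_B), with the number of genes tested. Cytoplasmic ribosomal proteins have a median of -0.98 at MII and -0.11 at MI, and mitochondrial-genome genes have 1.27 and -0.37.

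Zp1, Zp2 and Zp3 encode glycoproteins of the zona pellucida, the coat that surrounds the egg. They were called lower at MII and in the difference, and they were the 3 called members among 11 tested genes of the zona and egg surface (27.3%, against 3.35% and 2.51% of all genes). Zp2 (ENSMUSG00000030911.7, chromosome 7:120126772-120145291 on the minus strand of GRCm38) fell from 1069 CPM (832 to 2165) in GV_A to 259 CPM (214 to 571) in MII_A and measured 321 CPM (213 to 581) in GV_B and 287 CPM (160 to 351) in MI_B. Its change was -2.07 ± 0.24 (SE, adjusted p = 5.9e-08) at MII and -0.31 ± 0.16 (SE, adjusted p = 0.39) at MI, and the difference was -1.76 ± 0.28 (SE, adjusted p = 9.0e-05). Zp3 fell from 1711 CPM (1287 to 2574) to 398 CPM (268 to 583) with a difference of -1.88 ± 0.38 (SE, adjusted p = 0.0016), and Zp1 from 603 CPM (513 to 897) to 258 CPM (193 to 360) with a difference of -1.44 ± 0.28 (SE, adjusted p = 9.5e-04). The MII oocytes of each gene lay below all GV_A oocytes, and the MI oocytes overlapped GV_B. In each of the 3 genes the fitted level in GV_B was itself below that in GV_A by over 2-fold, with a median of -2.04, and the GV_B oocytes overlapped the MII oocytes. A later fall and a lower starting level in batch B cannot be told apart for them. The sperm-binding tetraspanin Cd9 gave -0.95 ± 0.33 (SE, adjusted p = 0.082) and the plasminogen activator Plat 0.52 ± 0.20 (SE, adjusted p = 0.12), and neither passed; Plat turned to -0.25 with spike-in scaling.

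Maternal-effect genes act in the egg and early embryo through messages and proteins stored in the oocyte. Of 32 such genes, 4 (Npm2, Nlrp2, Figla and Khdc3) were lower at MII (12.5%, against 3.35% of all genes) and 3 (Npm2, Nlrp2 and Dnmt1) in the difference (9.38%, against 2.51%). Npm2, a histone chaperone of the egg, fell from 294 CPM (273 to 395) to 141 CPM (120 to 159) in batch A and measured 233 CPM (207 to 294) in GV_B and 235 CPM (149 to 459) in MI_B, a difference of -1.18 ± 0.21 (SE, adjusted p = 4.4e-04). Nlrp2 gave -1.25 ± 0.23 (SE, adjusted p = 4.6e-04). Dnmt1, the maintenance DNA methyltransferase, was lower by less than 2-fold at MII, at -0.84 ± 0.20 (SE, adjusted p = 0.0038), and passed in the difference at -1.04 ± 0.24 (SE, adjusted p = 0.0057), a value that went to -0.96 without MII oocyte 3 and to between -0.98 and -0.99 without any of GV_A oocytes 1 and 2, MII oocyte 6, GV_B oocytes 3, 4 and 7 and MI oocyte 6, each just under the 2-fold limit. For all 3 genes MII and GV_A did not overlap and MI and GV_B did. The most abundant member, Zbed3, measured 3345 CPM (1948 to 4677) in GV_A and 4870 CPM (3272 to 6681) in MII_A, with a difference of 0.52 ± 0.29 (SE, adjusted p = 0.34) that turned to -0.24 with spike-in scaling. Nlrp14 was lower at MII by less than 2-fold, at -0.72 ± 0.17 (SE, adjusted p = 0.004), and did not pass in the difference.

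Among 27 genes of RNA-binding translational control, Ybx2, Ybx3 and Pabpc1 were lower at MII, and Ybx2, Ybx3 and Cpeb1 were lower in the difference (11.1% in both, against 3.35% and 2.51% of all genes). Cpeb1 (ENSMUSG00000025586.17, chromosome 7:81347026-81455465 on the minus strand of GRCm38), whose protein binds the cytoplasmic polyadenylation element, measured 331 CPM (274 to 449) in GV_A, 181 CPM (158 to 209) in MII_A, 313 CPM (270 to 363) in GV_B and 343 CPM (282 to 461) in MI_B. It gave -0.91 ± 0.13 (SE, adjusted p = 3.2e-06) at MII and 0.12 ± 0.09 (SE, adjusted p = 0.59) at MI, and the difference was -1.03 ± 0.16 (SE, adjusted p = 4.0e-05). That difference sat at the 2-fold limit and became -0.99 without MII oocyte 1 or MI oocyte 13 and -0.94 without GV_A oocyte 6, and leaving out GV_B oocyte 4 or MI oocyte 1 also took it under that limit. The MII oocytes nonetheless all lay below GV_A, and MI overlapped GV_B. The Y-box protein gene Ybx3 fell from 143 CPM (72 to 178) to 41.8 CPM (37.8 to 59.8), with a difference of -1.34 ± 0.22 (SE, adjusted p = 8.8e-05). Ybx2, a Y-box protein that stores maternal messages, gave -1.23 ± 0.32 (SE, adjusted p = 0.015), with overlap between MII and GV_A and no call from HTSeq counts (adjusted p = 0.057) or with a block on the oocyte number (adjusted p = 0.051). Lsm14a gave 0.83 ± 0.20 (SE, adjusted p = 0.0084), under 2-fold, and Zar1 gave 0.82 ± 0.35 (SE, adjusted p = 0.18), which did not pass. The list's median difference of 0.07 was -0.76 with spike-in scaling and -0.01 relative to all genes.

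Outside the lists, 4 protein-coding genes were among the lower genes with the smallest adjusted p of the difference. Fbxw21, an oocyte F-box gene with close relatives in the genome and therefore uncertain in its counts, fell from 297 CPM (255 to 447) in GV_A to 48.2 CPM (35.8 to 58.8) in MII_A and measured 191 CPM (96.5 to 262) in GV_B and 152 CPM (67 to 185) in MI_B. The difference was -2.37 ± 0.27 (SE, adjusted p = 9.0e-08). Ppie, a peptidyl-prolyl isomerase of the spliceosome, fell at MII by 1.78 ± 0.30 (SE, adjusted p = 7.7e-05), had 0.84 ± 0.21 (SE, adjusted p = 0.041) at MI, under 2-fold, and differed by -2.62 ± 0.36 (SE, adjusted p = 1.0e-05). Upp1, uridine phosphorylase, fell from 95.5 CPM (75 to 142) to 22.1 CPM (16.3 to 38) in batch A, measured 88.4 CPM (54.6 to 184) in GV_B and 102 CPM (48.7 to 243) in MI_B, and differed by -2.49 ± 0.36 (SE, adjusted p = 1.3e-05). Cage1 differed by -1.41 ± 0.20 (SE, adjusted p = 1.8e-05). In each of the 4 genes every MII oocyte lay below every GV_A oocyte and the MI oocytes overlapped GV_B. Ppp2r5a, a regulatory subunit of protein phosphatase 2A, was also placed after MI at -1.75 ± 0.40 (SE, adjusted p = 0.0053), but HTSeq counts gave 0.15 in the opposite direction (adjusted p = 0.91), and its GV_A oocytes stood at 180 CPM (109 to 787) and overlapped MII_A.

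**Figure D4:**
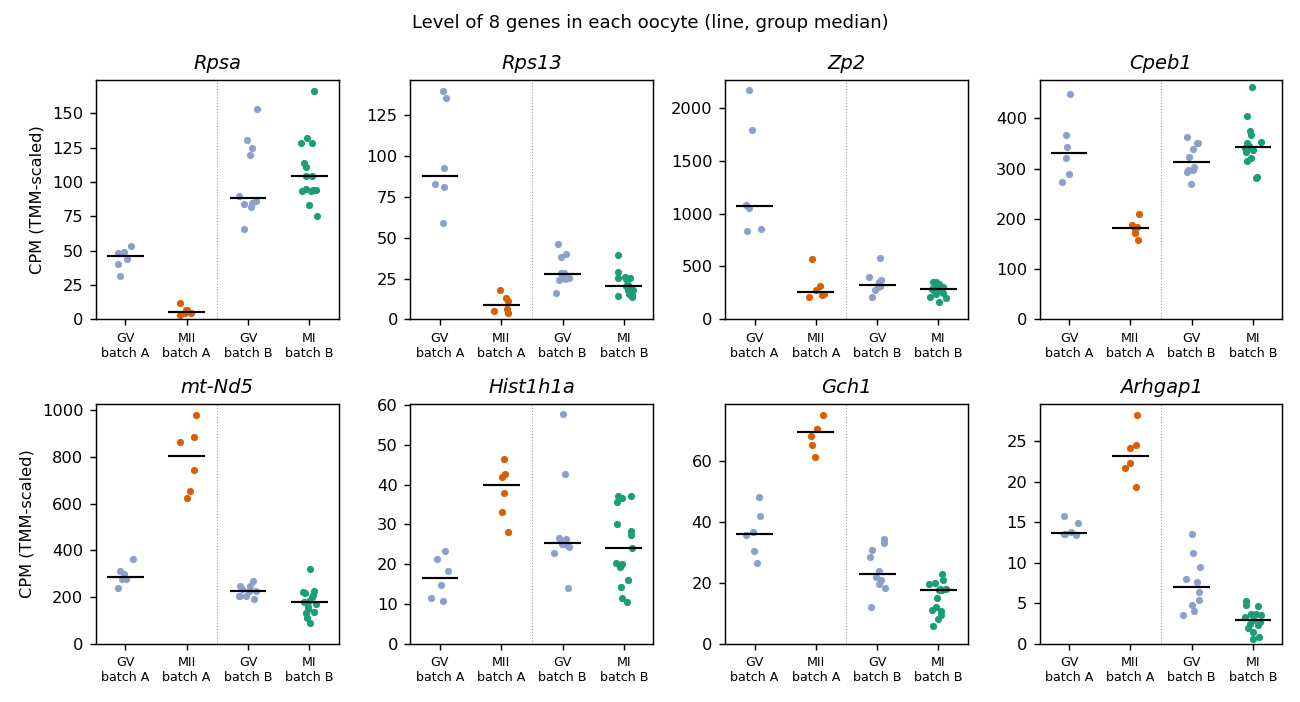
CPM (TMM-scaled) of 8 named genes in each oocyte of GV_A, MII_A, GV_B and MI_B, with a line at the group median. Rpsa, Rps13, Zp2 and Cpeb1 are lower in every MII oocyte than in every GV_A oocyte, and mt-Nd5, Hist1h1a, Gch1 and Arhgap1 are higher.

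The mitochondrial genome encodes subunits of the respiratory chain and the RNAs of the mitochondrial ribosome. Of its 14 genes tested, 8 were higher at MII, where all genes gave 1.28%, 11 were higher in the difference (78.6%, against 1.69%) and 8 were placed after MI. The medians were 1.27 at MII and -0.37 at MI, and with spike-in scaling the MII median was 0.46 and the difference 0.96, so the direction held, while 6 of the 8 members named here (mt-Nd5, mt-Nd6, mt-Nd2, mt-Nd1, mt-Co1 and mt-Rnr2) lost the call in the difference. mt-Nd5 (ENSMUSG00000064367.1, chromosome M:11742-13565 on the plus strand of GRCm38), of complex I, rose from 287 CPM (240 to 363) in GV_A to 804 CPM (623 to 982) in MII_A and measured 226 CPM (190 to 267) in GV_B and 178 CPM (88.9 to 318) in MI_B. Its change was 1.43 ± 0.19 (SE, adjusted p = 1.2e-06) at MII and -0.33 ± 0.13 (SE, adjusted p = 0.24) at MI, and the difference was 1.76 ± 0.23 (SE, adjusted p = 3.7e-06), or 0.98 with spike-in scaling.

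mt-Nd4 rose from 388 CPM (344 to 503) to 1112 CPM (797 to 1481), with a difference of 1.80 ± 0.31 (SE, adjusted p = 2.5e-04). mt-Cytb of complex III rose from 786 CPM (485 to 1104) to 2275 CPM (1269 to 3131) and measured 234 CPM (164 to 742) in GV_B and 163 CPM (68.8 to 335) in MI_B, with a difference of 2.05 ± 0.38 (SE, adjusted p = 5.6e-04). For these genes, as for mt-Nd5, mt-Nd6 and mt-Nd2, all MII oocytes lay above all GV_A oocytes, whereas the MI and GV_B oocytes overlapped. mt-Nd6, mt-Nd2, mt-Nd1 and mt-Co1 gave differences of 1.40 (adjusted p = 8.6e-04), 1.82 (adjusted p = 0.0028), 1.65 (adjusted p = 0.0036) and 1.63 (adjusted p = 0.0056), and for mt-Nd1 and mt-Co1 MII overlapped GV_A. The large ribosomal RNA mt-Rnr2 passed in the difference alone at 1.12 ± 0.24 (SE, adjusted p = 0.0024), with 0.78 ± 0.19 (SE, adjusted p = 0.007) at MII. GV_B stood below GV_A in 12 of the 14 genes, with a median of -1.47.

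Summed over the mitochondrial genome, the share of counts averaged 1.84% in GV_A and 2.86% in MII_A, which did not pass after adjustment (exact permutation p = 0.0216, adjusted p = 0.101). With HTSeq counts the gain was 1.735 points and did pass (exact permutation p = 0.0152, adjusted p = 0.0485). In batch B the share fell from 2.07% in GV_B to 1.57% in MI_B (permutation p = 0.00232, adjusted p = 0.0162). Both comparisons overlapped between stages. Single genes of the list gave 0 calls at MI by edgeR, DESeq2 and limma-voom. At an unadjusted p under 0.05 by edgeR, 6 were lower (42.9%, against 6.37% of all genes) and 0 higher (against 7.38%).

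The other higher genes placed after MI rested largely on a single library. Of the 119, 47 were protein-coding (39.5%, against 87.1% of all genes tested), 25 were pseudogenes (21%, against 2.89%) and 26 long non-coding RNAs, with a median mean level of 4.15 CPM and median changes of 3.14 at MII and -1.02 at MI, and only 26 entered the HTSeq fit, which gave 21 the same sign and called 11. A gene could pass the filter of batch A through its 6 MII oocytes alone, and with 10 or more counts asked in 6 oocytes of each of the 4 groups the class held 51 genes. Olfactory and vomeronasal receptor genes, a set chosen after their values were seen, made up 20 of the 47 (42.6%, against 0.932% of all protein-coding genes tested). Without MII oocyte 1, 29 higher genes were placed after MI, 28 of them among the 119 (23.5%), and 16 were protein-coding, with 8 of the mitochondrial genome and 1 receptor gene, Vmn2r66. Vmn1r76 was an example: its GV_A oocytes stood at 0.882 CPM (0.417 to 1.35) and its MII oocytes 1.68 CPM (0.596 to 22.5), the difference was 3.63 ± 1.00 (SE, adjusted p = 0.02), and it was 1.97 with no call without MII oocyte 1 and -0.25 with HTSeq counts. These receptor families have many near-identical members, which makes their counts uncertain.

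Hist1h1a, a linker histone gene, was placed after MI, and HTSeq counts called its difference too. It rose from 16.5 CPM (10.8 to 23.4) in GV_A to 39.9 CPM (28.2 to 46.5) in MII_A and measured 25.4 CPM (13.9 to 57.9) in GV_B and 24 CPM (10.4 to 37.2) in MI_B, with a difference of 1.46 ± 0.36 (SE, adjusted p = 0.009) and of 0.69 with no call with spike-in scaling. All MII oocytes lay above all GV_A oocytes, and MI overlapped GV_B. Linker histone genes share sequence, which adds uncertainty. Alkbh8, a tRNA-modifying enzyme, rose from 3.31 CPM (2.56 to 5.0) to 25 CPM (21 to 33.2) with a difference of 2.99 ± 0.53 (SE, adjusted p = 3.0e-04), but HTSeq counts gave -0.16 (adjusted p = 0.96). Its MI oocytes, at 6.0 CPM (0 to 15.3), overlapped GV_B at 6.21 CPM (3.04 to 13.6).

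Genes placed already at MI or at both steps were few in the main fit, whose calls at MI depended on the tool and the filter. St3gal1, a sialyltransferase gene named because it was the only gene of its class, averaged 6.81 CPM in GV_A and 0.873 in MII_A, and 1.96 in GV_B and 0.471 in MI_B. It fell by 2.96 at MII (adjusted p = 0.0065) and by 2.00 at MI (adjusted p = 0.045), the difference of -0.95 ± 0.87 (SE) did not pass, and it was too low to enter the HTSeq fit. Timm22, of the carrier translocase of the inner mitochondrial membrane, was lower at both steps and in the difference. It fell from 39.4 CPM (22.2 to 58.6) in GV_A to 1.31 CPM (0.134 to 2.87) in MII_A, and from 6.86 CPM (2.55 to 18) in GV_B to 1.5 CPM (0 to 5.09) in MI_B, with changes of -4.72 ± 0.61 (SE, adjusted p = 4.7e-07) and -1.90 ± 0.37 (SE, adjusted p = 0.0091) and a difference of -2.82 ± 0.67 (SE, adjusted p = 0.0075). MII and GV_A were apart while MI overlapped GV_B, and HTSeq counts gave a difference of -0.36 with no call. Across the 37 fits that each left out 1 oocyte, the genes already at MI numbered 0 to 7, the highest without MI oocyte 9, and 0 of the class were called higher by edgeR with all oocytes.

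A small group moved at MI alone: 8 genes were higher and 3 (Arhgap1, Grm2 and Nbdy) lower there, without a call at MII and with the difference called the other way. Arhgap1, a GTPase-activating protein, fell from 6.97 CPM (3.59 to 13.5) in GV_B to 2.88 CPM (0.631 to 5.33) in MI_B, while GV_A stood at 13.7 CPM (13.4 to 15.8) and MII_A 23.2 CPM (19 to 28.2). Its change was -1.30 ± 0.24 (SE, adjusted p = 0.0058) at MI and 0.72 ± 0.33 (SE, adjusted p = 0.17) at MII, and the difference was 2.02 ± 0.41 (SE, adjusted p = 0.0018). MI and GV_B overlapped, and MII oocytes lay above all GV_A oocytes without passing the test. The metabotropic glutamate receptor gene Grm2 fell from 32 CPM (12.1 to 103) to 14.9 CPM (6.53 to 36) at MI, with a difference of 1.5 ± 0.41 (SE, adjusted p = 0.02) that was 0.74 with no call with spike-in scaling. Tyr, tyrosinase, rose from 3.18 CPM (1.47 to 4.11) in GV_B to 12.9 CPM (0.771 to 26.4) in MI_B, at 2.04 ± 0.36 (SE, adjusted p = 0.0057), with a difference of -2.48 ± 0.60 (SE, adjusted p = 0.008) that limma-voom did not call (adjusted p = 0.052). Vmn1r43, a vomeronasal receptor gene, gave 1.78 ± 0.43 (SE, adjusted p = 0.04) at MI, limma-voom and a block on the oocyte number did not call its difference (adjusted p = 0.106 and 0.06), and neither it nor Tyr entered the HTSeq fit. All 4 overlapped between MI and GV_B. The class held 11 genes in all, 29 without MI oocyte 9 and 3 without GV_B oocyte 8. In opposite directions at the 2 stages, both called, moved only Gm20632, an antisense transcript named for the same reason as St3gal1: it averaged 20.5 CPM in GV_A, 105 in MII_A, 68.9 in GV_B and 21.2 in MI_B, and since the strand of counting was not stated, its reads cannot be told apart from those of the gene it overlaps.

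Genes with the difference alone called did not pass at MII or at MI. The 89 higher genes had medians of 0.74 at MII and -0.58 at MI, and the 68 lower genes -0.87 and 0.44. Gch1, the first enzyme of tetrahydrobiopterin synthesis, measured 36.1 CPM (26.6 to 48) in GV_A and 69.5 CPM (61.4 to 75.2) in MII_A, and 22.9 CPM (12.1 to 34.5) in GV_B and 17.6 CPM (5.98 to 23) in MI_B. Its change was 0.91 ± 0.25 (SE, adjusted p = 0.015) at MII and -0.69 ± 0.18 (SE, adjusted p = 0.05023) at MI, and the difference was 1.59 ± 0.31 (SE, adjusted p = 9.7e-04), or 0.79 with no call with spike-in scaling. MII lay above all GV_A oocytes and MI overlapped GV_B.

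Maturation-promoting factor (MPF) drives meiosis, and cytostatic factor holds the egg at MII. Of their 23 genes edgeR called 0 at MII and 0 at MI, counts that cannot be told apart from the shares of all genes in a list of this size. At an unadjusted p under 0.05, 5 were higher and 3 lower at MII (21.7% and 13%, against 12.7% and 10.1% of all genes). By the same limit 0 were higher and 4 lower at MI (0% and 17.4%, against 7.38% and 6.37%). DESeq2 called Wee1 lower at MII and none at MI and limma-voom none at either. The list's median difference of 0.25 turned to -0.54 with spike-in scaling and was 0.21 relative to all genes. Cks2, a small subunit that binds the cyclin-dependent kinase, was the 1 gene to pass in the difference (4.35% of the list, against 1.69% of all genes higher there), at 1.02 ± 0.32 (SE, adjusted p = 0.043). It measured 168 CPM (129 to 253) in GV_A, 221 CPM (160 to 320) in MII_A, 56.3 CPM (33.1 to 103) in GV_B and 34.2 CPM (14.6 to 61.5) in MI_B, with overlap in both batches. That call was lost with HTSeq counts (1.05, adjusted p = 0.062), limma-voom (0.98), no filter beyond 1 count (0.97), a block on the oocyte number (adjusted p = 0.076), spike-in scaling (0.23) and without any 1 of 15 oocytes, down to 0.87 without GV_B oocyte 7.

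Ccnb1, cyclin B1, measured 651 CPM (482 to 927) in GV_A and 1135 CPM (697 to 1596) in MII_A, and 365 CPM (269 to 473) in GV_B and 308 CPM (188 to 576) in MI_B, with a difference of 0.84 ± 0.26 (SE, adjusted p = 0.039), under 2-fold. Its partner Cdk1 gave -0.79 ± 0.23 (SE, adjusted p = 0.023) at MII and -0.69 ± 0.29 (SE, adjusted p = 0.16) in the difference. Map2k1, a kinase that acts downstream of MOS, gave 0.74 ± 0.15 (SE, adjusted p = 8.5e-04) at MII, again under 2-fold, and Mos itself 0.27 ± 0.15 (SE, adjusted p = 0.27). MII and GV_A overlapped for Ccnb1, Cdk1 and Mos and were apart for Map2k1. The inhibitory kinases Wee1 and Wee2 gave differences of -1.43 ± 0.51 (SE, adjusted p = 0.088) and 0.48 ± 0.17 (SE, adjusted p = 0.087), of which DESeq2 called that of Wee1. Fbxo43, the EMI2 protein that holds the egg at MII, gave 0.35 ± 0.23 (SE, adjusted p = 0.45). Mapk3, a kinase of the same cascade, was lower at both stages by less than 2-fold, at -0.88 ± 0.25 (SE, adjusted p = 0.018) at MII and -0.70 ± 0.18 (SE, adjusted p = 0.048) at MI. With spike-in scaling the differences of Mos, Wee2 and Fbxo43 turned to -0.38, -0.31 and -0.44.

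Further members gave differences that did not pass. Among the kinases, Rps6ka3 was at 0.81 (adjusted p = 0.16), Rps6ka1 at -0.17 (adjusted p = 0.93), Mastl, which inhibits phosphatase 2A through its substrates, at 0.25 (adjusted p = 0.66) and Pkmyt1 at 0.10 (adjusted p = 0.95). Those substrates, Arpp19 and Ensa, gave 0.20 (adjusted p = 0.7) and 0.11 (adjusted p = 0.93). The cyclin genes Ccna2, Ccnb2 and Ccnb3 gave 0.50 (adjusted p = 0.2), 0.76 (adjusted p = 0.43) and -0.03 (adjusted p = 0.98), and the adaptor Cks1b 0.73 (adjusted p = 0.24). The activating phosphatases Cdc25a, Cdc25b and Cdc25c gave 0.10 (adjusted p = 0.89), 0.13 (adjusted p = 0.89) and 0.42 (adjusted p = 0.59). All of these positive values but that of Rps6ka3 turned negative with spike-in scaling.

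The anaphase-promoting complex starts the separation of chromosomes, and the spindle checkpoint restrains it. Of their 30 genes edgeR called 0 at MII and at MI, counts that cannot be told apart from the shares of all genes in a list of this size. At an unadjusted p under 0.05, 6 were higher and 4 lower at MII (20% and 13.3%, against 12.7% and 10.1% of all genes). By the same limit 1 was higher and 4 lower at MI (3.33% and 13.3%, against 7.38% and 6.37%). DESeq2 called Anapc10 lower at MI, and limma-voom called 0 at both. In the difference edgeR called 1 member, higher (3.33%, against 1.69% of all genes). Pttg1, securin, passed in the difference alone at 1.16 ± 0.35 (SE, adjusted p = 0.039), with 462 CPM (369 to 672) in GV_A and 743 CPM (531 to 1095) in MII_A and no call at MII, and lost the call with HTSeq counts (adjusted p = 0.065), with a block on the oocyte number (adjusted p = 0.078), with spike-in scaling (0.33) and without any 1 of 11 oocytes. Separase, Espl1, gave 0.94 ± 0.29 (SE, adjusted p = 0.041), and the checkpoint kinase Bub1b gave 0.73 ± 0.17 (SE, adjusted p = 0.0034) at MII, with MII above all GV_A oocytes and a difference of 0.51 (adjusted p = 0.15) that turned to -0.31 with spike-in scaling. The complex's subunits Anapc10 and Anapc15 gave 1.54 (adjusted p = 0.056) and -0.58 (adjusted p = 0.13). Of 29 spindle and chromosomal passenger genes, edgeR called 0 at MII and at MI, and 13 were higher and 3 lower at MII at an unadjusted p under 0.05 (44.8% and 10.3%, against 12.7% and 10.1% of all genes). In the difference it called 1 of them, higher (3.45%, against 1.69%). Aurkc, the meiotic member of the Aurora kinases, passed in the difference alone: it measured 148 CPM (131 to 178) in GV_A and 235 CPM (182 to 307) in MII_A, 63.2 CPM (35.5 to 107) in GV_B and 40.9 CPM (23.3 to 69) in MI_B, and differed by 1.22 ± 0.26 (SE, adjusted p = 0.0031), or 0.40 with no call with spike-in scaling. MII lay above GV_A without overlap. Tacc3 and Spc24, of spindle poles and kinetochores, gave -0.67 (adjusted p = 0.04998) and -0.79 (adjusted p = 0.055), the first under 2-fold. Ect2 and the cohesin gene Smc3 gave 0.64 (adjusted p = 0.098) and 0.41 (adjusted p = 0.34), which turned to -0.19 and -0.38 with spike-in scaling. The list medians of the difference, 0.21 and 0.25, were -0.55 and -0.51 with spike-in scaling, which moved all genes down, and 0.20 and 0.25 relative to all genes.

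Deadenylation and decapping factors, which start the removal of messages, numbered 28, with 1, Cnot10, lower at MII (3.57%, near the 3.35% of all genes) and placed after MI. Cnot10, a subunit of the CCR4-NOT deadenylase, fell from 19.1 CPM (17.9 to 37.5) to 12 CPM (10 to 13.8) and differed by -1.16 ± 0.29 (SE, adjusted p = 0.012), a call lost with a block on the oocyte number (adjusted p = 0.053). Cnot7, the catalytic deadenylase, gave 0.54 ± 0.13 (SE, adjusted p = 0.0068) at MII and 0.72 ± 0.16 (SE, adjusted p = 0.0051) in the difference, under 2-fold, Pan2 gave 0.89 ± 0.24 (SE, adjusted p = 0.016), and the decapping activator Dcp1a gave 0.75 (adjusted p = 0.026). Btg4, the adaptor that recruits the deadenylase during maturation, gave 0.44 ± 0.22 (SE, adjusted p = 0.26). Cnot10 was lower in all MII oocytes than in GV_A, and Cnot7 and Pan2 were higher in all. The list's median difference of 0.30, like the values of Cnot7, Dcp1a and Btg4, turned negative with spike-in scaling (-0.49, -0.06, -0.03 and -0.41), and relative to all genes the list median was 0.27.

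Nuclear pore and lamina genes had a median of 0.46 at MII and -0.04 at MI, with 16 of 32 higher and 2 lower at MII at an unadjusted p under 0.05 (50% and 6.25%, against 12.7% and 10.1% of all genes) and 0 called there by edgeR, DESeq2 or limma-voom. Nup85 and Nup35, of the pore scaffold, passed in the difference alone at 1.08 ± 0.23 (SE, adjusted p = 0.0027) and 1.21 ± 0.31 (SE, adjusted p = 0.014), and HTSeq counts lost Nup35 (adjusted p = 0.053). They were 6.25% of the list, against 1.69% of all genes called higher there. With spike-in scaling the 2 genes gave 0.32 and 0.40 with no call. Nup85 measured 86 CPM (69.8 to 114) in GV_A and 139 CPM (127 to 168) in MII_A without overlap, and 45.5 CPM (32.7 to 65) in GV_B and 34.8 CPM (23.7 to 52.3) in MI_B with overlap. Nup153 and Nup214, of the basket and the cytoplasmic filaments, gave 0.82 (adjusted p = 0.02) and 0.92 (adjusted p = 0.013), under 2-fold, and the basket gene Tpr 0.37 (adjusted p = 0.37), which spike-in scaling turned to -0.42. The list's median difference of 0.46 turned to -0.34 with spike-in scaling, or 0.42 relative to all genes.

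Peroxiredoxin and glutathione genes numbered 30, of which Gstt2, Prdx5 and Gsta4 were lower at MII (10%, against 3.35% of all genes). In the difference 1 was lower and 1 higher (3.33% each, against 2.51% and 1.69%). Gstt2, a glutathione transferase, fell from 15.9 CPM (8.94 to 31.7) in GV_A to 4.42 CPM (2.87 to 8.23) in MII_A, measured 14.9 CPM (7.83 to 28.9) in GV_B and 20.6 CPM (10.8 to 42.8) in MI_B, and differed by -2.40 ± 0.43 (SE, adjusted p = 3.5e-04). Prdx1 passed in the difference in the higher direction at 1.11 ± 0.28 (SE, adjusted p = 0.0099), with -0.66 ± 0.16 (SE, adjusted p = 0.037) at MI, and was 0.33 with no call with spike-in scaling and 0.95 without GV_B oocyte 7. Sod1, superoxide dismutase, gave -0.84 (adjusted p = 0.022), under 2-fold. Gstt2 was apart between MII and GV_A, and Prdx1 overlapped in both batches. The list's median difference of 0.03 was -0.76 with spike-in scaling and -0.01 relative to all genes. Oocyte signals to cumulus cells (12 genes) and heat shock and stress genes (21) had 0 members called in any of the 3 comparisons by edgeR, DESeq2 or limma-voom. Of all genes edgeR called 1.28% higher and 3.35% lower at MII, 0.39% and 0.0716% at MI, and 1.69% and 2.51% in the difference. In lists of this size counts of 0 cannot be told apart from those shares. At an unadjusted p under 0.05 edgeR gave 1 signal gene lower and 0 higher in the difference (8.33% and 0%, against 8.8% and 9.64% of all genes). Of the stress genes 3 were lower and 2 higher (14.3% and 9.52%). The growth factor genes Gdf9, Tgfb2 and Fgf8 gave differences of 0.13 (adjusted p = 0.84), -0.79 (adjusted p = 0.016) and -0.39 (adjusted p = 0.58), the gap junction gene Gja4 -0.30 (adjusted p = 0.64) and the phosphodiesterase gene Pde3a 0.38 (adjusted p = 0.37). Of the chaperones, Hspa8 and Hsp90aa1 gave -0.64 (adjusted p = 0.027) and -0.69 (adjusted p = 0.034), both under 2-fold, and Hsph1 -0.85 (adjusted p = 0.021), while Txnip, which binds thioredoxin, gave 0.51 (adjusted p = 0.15). Gdf9, Pde3a and Txnip turned to -0.67, -0.40 and -0.31 with spike-in scaling. The median difference of the signal genes, 0.18, turned to -0.64 and was 0.11 relative to all genes.

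None of the 17 lists had a member called at MI by edgeR, where 0.39% of all genes were called higher and 0.0716% lower. DESeq2 called 3 list members there, beside 146 higher and 33 lower among all 12567 genes. Of the 3, Mrps26, of the mitochondrial ribosome, was higher, and Anapc10 and the glutathione peroxidase gene Gpx1 were lower. At an unadjusted p under 0.05, 18 of 80 respiratory chain genes were lower at MI (22.5%, against 6.37% of all genes) and 1 higher (1.25%, against 7.38%). Of 78 mitochondrial ribosomal proteins 9 were lower (11.5%) and 4 higher (5.13%).

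The summed level of the 29 cumulus and granulosa markers (CPM of the library total) averaged 58.8 in GV_A and 40.0 in MII_A (exact permutation p = 0.0303, adjusted p = 0.106; with HTSeq counts -26.4 at an adjusted p = 0.0485), and 44.2 in GV_B and 41.5 in MI_B (permutation p = 0.558). Cyp19a1 was the most abundant, at 17.5, 16.1, 16.2 and 13.6 CPM in GV_A, MII_A, GV_B and MI_B, whereas Amh averaged 0.0133 and 0.0152 CPM in GV_A and MII_A and 0 in batch B, and Areg was at 0 in all oocytes. Of the 29 means, 16 were lower and 12 higher in MII_A than in GV_A, and 14 were lower and 9 higher in MI_B than in GV_B. These plain means carry no TMM factors, and the scaling can turn a direction. Of the 3 tested markers, Cyp19a1 and Nr5a2 had lower means in MII_A, but their fitted MII changes with TMM were 0.18 and 0.16. Kitl was lower by both, with a fitted change of -0.46, and none of the 3 was called. The 8 untested markers with a mean over 1 CPM in any group are given as means in GV_A, MII_A, GV_B and MI_B. Ccnd2 averaged 3.92, 0.0609, 3.57 and 0.262, Hsd3b1 2.88, 0.1, 0.0941 and 0.00506, Cyp11a1 2.67, 0.462, 0.275 and 0.14, and Fshr 1.26, 0.0152, 0.219 and 0.00625. Gja1 averaged 1.29, 0.655, 3.16 and 0.276, Inhba 0.802, 0.737, 1.6 and 0.252, Star 1.18, 0.591, 0.57 and 0.844, and Has2 1.24, 0.646, 0.904 and 2.12. The 14 blood and immune markers summed to 52.9 in GV_A and 40.3 in MII_A (exact permutation p = 0.0455, adjusted p = 0.127), and 21.4 and 15.9 in batch B. Of the 14 means, 3 were lower and 10 higher in MII_A than in GV_A, and 9 were lower and 1 higher in MI_B than in GV_B, with Ms4a1 the most abundant at 51.7, 36.2, 16.1 and 12.4 CPM in the 4 groups, and S100a9 was at 0 in all oocytes. The 15 oocyte markers summed to 19565 CPM in GV_A, 11432 in MII_A, 7253 in GV_B and 5956 in MI_B, with no test made. Of their means, 13 were lower and 2 higher in MII_A than in GV_A. In batch B, 12 were lower and 3 higher in MI_B than in GV_B. Annotated ribosomal RNA took 15.6% and 21.7% of counts in GV_A and MII_A and 26.9% and 28.3% in GV_B and MI_B, without a difference that passed. Genes holding 1 count or more averaged 20946 in GV_A, 22164 in MII_A, 17945 in GV_B and 17337 in MI_B, also without one. Their part in the gene changes was not tested.

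The 3' untranslated regions (3'UTRs) of the lower genes placed after MI had a median annotated length of 221 bases in 190 genes and 278 in the 156 genes that were not cytoplasmic ribosomal proteins, against 1197 in 10877 protein-coding genes tested. The element TTTTAT or TTTTAAT (CPE), searched on the sense strand, was in 30% of the 190 (95% exact binomial interval 23.6 to 37.1%) and in 64.9% of all. Shorter regions hold fewer motifs, so the last 100 bases were read too: 14.2% of the 190 (9.58 to 20%), 16% of the 156 (10.6 to 22.7%), 5.33% of the 150 lower genes of unresolved timing (2.33 to 10.2%) and 19.5% of all (18.7 to 20.2%) held it there. The lower quartile of length was 91.2 bases in the 190 and 503 in all, so that window lessens the difference in length and does not remove it. The intervals of the 190 and of the 156 both hold the share of all genes. Among the genes higher in the difference alone, 70.8% of 72 held a CPE in the whole 3'UTR and 34.7% in its last 100 bases (23.9 to 46.9%), and among those lower in the difference alone, 52.5% of 59 and 15.3% (7.22 to 27.0%). These are descriptions with no test, and the intervals cover counting error only. For the higher genes placed after MI the check was void, since only 33 of 47 (70.2%) had an annotated 3'UTR.

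Other motifs were searched in the same way. TGTANATA (Pumilio) was in 7.89% of 3'UTRs of the lower genes placed after MI and in 27.7% of all, and TATTTAT (AU-rich) in 11.6% and 31.7%, sets whose lengths differ as above. In the last 100 bases, Pumilio was in 1.05% (0.128 to 3.75%) against 5.02%, and the AU-rich element in 3.16% (1.17 to 6.75%) against 4.48%. A poly(A) signal, AATAAA or ATTAAA in the last 50 bases, was annotated in 76.3% of the lower genes after MI (69.6 to 82.2%), 66.7% of the lower genes of unresolved timing (58.5 to 74.1%) and 67.8% of those lower in the difference alone (54.4 to 79.4%). It was in 88.9% of the genes higher in the difference alone (79.3 to 95.1%) and 78.4% of all.

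The windows around the CPE nearest the 3' end are shown for searched genes with a called difference printed above and a CPE in the last 100 bases. Only genes named by rule were searched, and windows across an exon junction were left out. Psma2, Eif2b1, Nbdy and Vmn2r66, named outside the rule, and the genes of the mitochondrial genome were not searched. The windows shown are from 4 genes higher in the difference (Gch1, Cks2, Aurkc and Nup35) and 6 lower (Dnmt1, Ybx2, Mrpl14, Eef1a1, Ppp2r5a and Tyr). Capitals mark the element, and a match is a description. They are read 5′ to 3′ on the sense strand from GENCODE M21 transcripts on GRCm38, each in the annotated 3'UTR. Gch1 lies at chr14:47153895-47153916 (minus strand), Cks2 at chr13:51650599-51650628 (plus), Aurkc at chr7:7003037-7003066 (plus) and Nup35 at chr2:80658882-80658902 (plus). Dnmt1 lies at chr9:20907238-20907267 (minus), Ybx2 at chr11:69941533-69941562 (plus), Mrpl14 at chr17:45698462-45698491 (plus), Eef1a1 at chr9:78478506-78478535 (minus), Ppp2r5a at chr1:191352026-191352055 (minus) and Tyr at chr7:87424833-87424862 (minus). The element ends 4 bases before the transcript end in Gch1 and Nup35, 45 in Cks2, 38 in Aurkc, 42 in Dnmt1, 56 in Ybx2, 16 in Mrpl14, 69 in Eef1a1, 64 in Ppp2r5a and 74 in Tyr.
Gch1: gattaaagtgtTTTTAATtttg
Cks2: ataaatgcctgTTTTATtttacctgttttg
Aurkc: cttgttttctcTTTTATgaagtgatgttaa
Nup35: actttgtcaatTTTTATgtgc
Dnmt1: acttgatgtagTTTTATatgttgtaatatt
Ybx2: ctctgaagccaTTTTATgaactgtcatgtg
Mrpl14: cagaataaatgTTTTAATgtatgttttctt
Eef1a1: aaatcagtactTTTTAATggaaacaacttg
Ppp2r5a: atggaaaactgTTTTATaatgagagatctt
Tyr: atattactttaTTTTAATgatgaagaagct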

How the data were processed

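Single oocytes were measured by Smart-seq2 with oligo-dT priming. The authors trimmed reads with Trim Galore 0.6.4, used mm10 with GENCODE annotation and spike-in sequences, and estimated the deposited expected counts with RSEM 1.3.1, which shares reads between genes. The deposited counts per gene of the second table were made by the authors with STAR 2.7.6a and HTSeq 0.12.4. Both tables hold 1 column per oocyte and are unscaled. A table of transcripts was not used. GENCODE M21 on GRCm38 gave names to 54723 of 54752 gene ids.

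Expected counts of all 37 oocytes were rounded and fitted in edgeR 4.0.16 (R 4.3.3) with TMM factors, a coefficient for each combination of batch and stage, and quasi-likelihood F tests; p-values were adjusted by Benjamini and Hochberg. The 92 spike-in transcripts were left out, and genes with 10 or more counts in at least 6 oocytes of each batch were kept. A gene was called at an adjusted p under 0.05 and a fold over 2. The median library held 10013962.5 expected counts in GV_A, 10509080 in MII_A, 11548239 in GV_B and 12840682 in MI_B, and the lowest 2709247. Log2 CPM correlated between oocytes at 0.788 to 0.982.

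Shares of counts and marker sums (CPM of the plain library total) were compared within each batch by permutation, exact in batch A and with 100000 resamples in batch B. Motifs were searched in 1 annotated 3'UTR per gene. Alternatives were DESeq2 1.42.0, limma 3.58.1 voom with a variance for each group, RLE factors, TMM without mitochondrial-genome and ribosomal RNA genes, spike-in factors for batch A, other filters, HTSeq counts, a block on the oocyte number, the adjusted p alone, and leaving out oocytes. The scripts were tested on simulated data. Summaries used pandas 2.3.3 in Python 3.11.15, permutations numpy 2.4.6, intervals scipy 1.17.1, and plots matplotlib 3.10.9.

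Only protein-coding genes with a symbol other than Gm or Rik numbers were named by rule. After MI these were the 10 higher and 10 lower genes with the smallest adjusted p of the difference that HTSeq counts called the same way. Already at MI and both steps were allowed 5 in each direction with an HTSeq change of the same sign, at MI alone and opposite up to 4, the difference alone 2 higher and 2 lower, and counting-dependent genes the 3 with the smallest adjusted p whose HTSeq difference had the other sign. Each list gave up to 4 members with the smallest adjusted p and its most abundant member, and of the MPF and cytostatic factor list any member could be named. Members named outside the rule, chosen after their values were seen, were St3gal1, Gm20632, Figla, Khdc3, Pabpc1, Eif3m, Eif3k, Eif2b1, Psma2, Nbdy, Vmn2r66, Mrps26, Gpx1, Prdx5 and Gsta4. The oocytes and lists were chosen with earlier results of these data known.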

Additional observations from a re-analysis of the deposited data

Results flagged for a closer look

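Values far from the others of their group were looked for in 114 groups, each of GV_A, MII_A or GV_B oocytes. In these 12 were found, where chance alone flags about 1 in 20 groups. The MI oocytes were not searched, so their absence below says nothing about them. MII oocyte 1 held 29816 genes with 1 count or more, and the nearest MII oocyte 22598. GV_A oocyte 5 had 78.4 CPM of blood and immune markers (nearest 53.5). MII oocyte 2 had 13588 CPM of oocyte markers (nearest 11581) and 570.9 CPM of Zp2 (nearest 315). GV_B oocyte 9 had 580.6 CPM of Zp2 (nearest 400.6). Ybx3 stood at 59.83 CPM in MII oocyte 5 (nearest 44.37) and at 201.8 in GV_B oocyte 8 (nearest 143.3). GV_B oocyte 7 was apart in Upp1 with 183.6 CPM (nearest 120.2), in mt-Cytb with 741.9 (nearest 349.8) and in Grm2 with 102.6 (nearest 53.64). Ppp2r5a reached 408.2 CPM in GV_B oocyte 10 (nearest 272.6), and Tyr 4.673 CPM in GV_A oocyte 4 (nearest 2.246).

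Spike-in transcripts held 44665 to 143061 counts in oocytes of batch A and at most 32 in batch B, in GV_B oocyte 6. The change at MII and the change at MI differed in 527 genes. The reasons for these values were not tested.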

How the results depend on the processing

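RLE factors and TMM without mitochondrial-genome and ribosomal RNA genes moved no summary. Of 118 named genes 116 kept direction and call of the difference with DESeq2, 112 with limma-voom, 103 with HTSeq counts and 57 with spike-in scaling. Tyr and Vmn1r43 did not enter the HTSeq fit. The naming rule itself asked for an HTSeq call of genes after MI, so the 103 was partly fixed by selection. Over the whole classes after MI, HTSeq counts called 135 of 217 lower and 11 of 26 higher genes the same way. Over all alternatives but single oocytes, 348 main values were the same, 158 moved and 3 became stronger. Among single genes and list counts, 2198 were the same, 90 moved, 35 turned, 41 became stronger and 36 weaker. A block on the oocyte number took the lower genes after MI from 238 to 129, and leaving out MII oocyte 1 took the higher ones from 119 to 29. The causes were not tested. Depth limits scarce genes, 1 oocyte is 1 library, and nothing ties oocytes to animals. Stage, batch and culture cannot be told apart in the difference.

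All oocytes with expected counts, edgeR and TMM gave called genes of MII total 582, MII higher 161, MII lower 421, MI total 58, MI higher 49, MI lower 9, difference total 527, difference higher 212 and difference lower 315. Their classes held after MI higher 119, after MI lower 238, difference alone higher 89, difference alone lower 68, MII unresolved higher 41, MII unresolved lower 181, already at MI 1, both steps 1, at MI alone 11, opposite 1 and MI unresolved 44. With DESeq2, called genes were MI total 179, MI higher 146 and MI lower 33, and classes held already at MI 6, at MI alone 31, opposite 2 and MI unresolved 139. With limma-voom, called genes were MII total 957, MII higher 267, MII lower 690, MI total 0, MI higher 0 and MI lower 0, and classes held difference alone higher 158, MII unresolved higher 141, MII unresolved lower 352, already at MI 0, both steps 0, at MI alone 0, opposite 0 and MI unresolved 0. The difference of single genes turned to Rps6ka1 0.11. With spike-in scaling of batch A, called genes were MII total 2796, MII higher 69, MII lower 2727, MI total 29, MI higher 22, difference total 2667, difference higher 98 and difference lower 2569, and classes held after MI higher 59, after MI lower 1947, difference alone higher 36, difference alone lower 601, MII unresolved higher 9, MII unresolved lower 779, already at MI 0, at MI alone 22 and MI unresolved 5. List medians of the difference moved to cytoplasmic ribosomal proteins -1.72, mitochondrial ribosomal proteins -1.21, respiratory chain -1.17, proteasome -1.19, translation factors -0.81, deadenylation -0.49, MPF -0.54, APC/C -0.55, spindle -0.51, zona pellucida -1.27, oocyte signals -0.64, maternal-effect -0.93, RNA-binding -0.76, heat shock -0.83, peroxiredoxin -0.76, nuclear pore -0.34 and mitochondrial genome 0.96. The difference of single genes turned to Mrpl18 -0.47, Sdha -0.29, Eif5b -0.022, Cnot7 -0.061, Dcp1a -0.033, Btg4 -0.41, Wee2 -0.31, Mos -0.38, Ccna2 -0.30, Cks1b -0.077, Ccnb2 -0.0096, Fbxo43 -0.44, Cdc25c -0.41, Mastl -0.54, Arpp19 -0.60, Cdc25b -0.66, Cdc25a -0.71, Ensa -0.71, Pkmyt1 -0.62, Bub1b -0.31, Ect2 -0.19, Smc3 -0.38, Plat -0.25, Pde3a -0.40, Gdf9 -0.67, Zbed3 -0.24, Txnip -0.31 and Tpr -0.42. With no filter beyond 1 count, called genes were MII higher 291, MI total 1231, MI higher 457, MI lower 774, difference total 1500, difference higher 1004 and difference lower 496, and classes held after MI higher 200, difference alone higher 510, difference alone lower 136, already at MI 6, both steps 2, at MI alone 324, opposite 43 and MI unresolved 856. List medians of the difference moved to deadenylation 0.19 and mitochondrial genome 0.83. With edgeR's filterByExpr, called genes were MI total 107 and MI lower 36, and classes held already at MI 3, opposite 2 and MI unresolved 86. With 10 counts in 6 oocytes of each of the 4 groups, called genes were MII higher 83 and difference higher 139, and classes held after MI higher 51 and both steps 0. With HTSeq counts, called genes were MII total 336, MII higher 29, MI total 3, MI higher 0, MI lower 3, difference total 273, difference higher 76 and difference lower 197, and classes held after MI higher 18, after MI lower 154, difference alone higher 56, difference alone lower 43, MII unresolved higher 11, already at MI 0, both steps 0, at MI alone 2, opposite 0 and MI unresolved 1. The difference of single genes turned to Alkbh8 -0.16, Ppp2r5a 0.15, Vmn1r76 -0.25 and Pkmyt1 -0.10. Between the means of oocytes, genes detected changed by -1671 at MI, the mitochondrial-genome share by 1.735 points at MII and granulosa markers by -26.42 CPM at MII, all of which passed there and not with expected counts. MI oocytes 4, 8 and 9 had median ratios of HTSeq to expected counts of 1.127, 1.112 and 1.069, against 1.976 to 2.2 in the others, and 13820, 13811 and 12481 genes detected by HTSeq, so they were also left out together. With expected counts they held 18385, 18532 and 15697 genes. The fit without them used expected counts, and HTSeq counts were not refitted without them. All HTSeq values given here, the -1671 genes at MI among them, therefore include these 3 oocytes. With a block on the oocyte number, called genes were MI total 8, MI higher 6, MI lower 2, difference total 295 and difference lower 153, and classes held after MI lower 129, difference alone higher 53, difference alone lower 20, already at MI 0, both steps 0, at MI alone 6, opposite 0 and MI unresolved 2. List medians of the difference moved to MPF 0.41. The difference of single genes turned to Rps6ka1 0.13. Oocyte numbers are not a design: pairs correlated at -0.405 to 0.348 in batch A (1 of 6 above 0.1, 2 best with their own number) and -0.19 to 0.134 in batch B (1 of 10 above 0.1, 0 best), so no pairing was used. At the adjusted p alone, called genes were MII total 1236, MII higher 614, MI total 90, MI lower 27 and difference higher 369, and classes held after MI higher 271, MII unresolved higher 340, MII unresolved lower 305, already at MI 3, at MI alone 23 and opposite 4. Without MI oocytes 4, 8 and 9, called genes were MI total 132 and MI higher 119, and classes held MII unresolved higher 63, already at MI 5, at MI alone 22 and MI unresolved 103. List medians of the difference moved to maternal-effect -0.025. The difference of single genes turned to Ccnb3 0.074. Without MII oocyte 1 and MI oocyte 15, called genes were MII higher 87, MI total 102 and MI higher 89, and classes held after MI higher 44, already at MI 2, at MI alone 17, opposite 3 and MI unresolved 79. List medians of the difference moved to translation factors 0.072, spindle 0.39, maternal-effect -0.053 and RNA-binding 0.21. In the last 100 bases of 3'UTRs, percents with a motif were after MI lower CPE 14.2, Pumilio 1.05 and AU-rich 3.16; unresolved lower CPE 5.33, Pumilio 3.33 and AU-rich 2; difference alone higher CPE 34.7, Pumilio 2.78 and AU-rich 6.94; difference alone lower CPE 15.3, Pumilio 5.08 and AU-rich 1.69; all genes CPE 19.5, Pumilio 5.02 and AU-rich 4.48. Leaving out each oocyte in turn gave ranges of MII higher 59 to 203, MI total 17 to 140, MI higher 13 to 125, MI lower 3 to 20 and difference higher 113 to 258 called genes (the 59 and the 113 without MII oocyte 1), and of after MI higher 29 to 135, MII unresolved higher 23 to 61, already at MI 0 to 7, at MI alone 3 to 29, opposite 0 to 3 and MI unresolved 12 to 102 genes per class. The list median of maternal-effect -0.18 to -0.0505 and the differences of Cdc25a -0.058 to 0.23, Ensa -0.015 to 0.22, Rps6ka1 -0.33 to 0.021, Pkmyt1 -0.056 to 0.27 and Ccnb3 -0.10 to 0.11 also moved or turned.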
